A study of Mus musculus with 16 samples.

Results

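CD45+ cells, the cells of the blood lineages that carry the surface phosphatase CD45, were compared between bone marrow and spleen of control mice. The comparison used the 8 control libraries of a series of 16, namely the 4 of bone marrow (replicates 1 to 4) and the 4 of spleen (replicates 1 to 4) with the label DbhVLM-mCherry. All of these mice were C57BL/6J animals with the Dbh-Cre driver, labelled 12 week, whose ventrolateral medulla (VLM) had received AAV-DIO-mCherry on both sides. Dbh encodes the enzyme that makes noradrenaline, so Cre restricts the virus to catecholaminergic neurons, and mCherry is a fluorescent protein with no receptor function. The mice also received clozapine N-oxide (CNO), and cells of both organs were collected 4 h later, so every library here comes from animals with the surgery, the virus and the drug. The remaining 8 libraries come from mice given the virus for hM3Dq, a designer receptor that CNO activates, and serve below as a second set of animals. The series text speaks of biological replicates. Replicate numbers run from 1 to 4 in control mice and from 5 to 8 in hM3Dq mice, so they repeat between organs but not between virus groups. The labels do not say whether replicate 1 of marrow and replicate 1 of spleen are the same mouse. Nor do they say whether animals were pooled, so p-values measure the spread between these libraries. The main fit was unpaired, although the values hold a hint that numbers match between the organs, given in the last paragraph.

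Bone marrow is where blood cells are made. Stem cells there give rise to neutrophils through promyelocytes, which pack the primary granules, then myelocytes and band cells, which fill the secondary and tertiary granules, and mature cells that stop making granule proteins. The marrow also makes erythroid cells, platelets, monocytes and immature B cells. The spleen filters blood through red pulp macrophages, and its white pulp holds follicles of mature B cells, a marginal zone and a T cell area where antigen is presented. In RNA from bulk samples, a lower number of cells of a type and less RNA per cell cannot be told apart.

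Poly(A) RNA was sequenced to 12.55 to 15.9 megafragments per marrow library and 13.15 to 16.96 megafragments per spleen library, counted as fragments assigned to genes. Values are FPKM, fragment counts scaled by exon length and by the depth of the library. Log2 values of libraries of the same organ correlated at 0.976 to 0.984 in marrow and 0.977 to 0.987 in spleen, across genes, against 0.83 to 0.858 between the organs. The CD45 gene itself, Ptprc, read 37, 36.1, 33.5 and 37.2 FPKM in the marrow libraries and 86.9, 93.5, 92.3 and 92 FPKM in the spleen libraries, a difference of -1.10 ± 0.06 toward spleen. Haemoglobin genes, products of red cell precursors, were present in both sorts and held 1.34% to 2.83% of fragments in marrow and 0.564% to 1.67% in spleen. Xist, the RNA of the inactive X chromosome, was read in all 8 libraries and the Y-linked Ddx3y in none. A ribosomal RNA locus on chromosome 17 held 16.4% to 22.6% of fragments. Spleen replicate 2 stood apart in red cell genes, with summed erythroid genes at 7825 FPKM against 18362 to 23856 in the other spleen libraries. The erythroid list, Klf1, Slc4a1 and the cell division lists are given below with and without it. Haemoglobin values are given only with it.

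The organs differed in most of their measured transcriptome. Of 16943 genes with 10 reads or more in at least 4 of the 8 libraries, 11802 (69.7%) were called different (limma, Benjamini-Hochberg adjusted p below 0.05), with 5725 (33.8%) higher in marrow and 6077 (35.9%) higher in spleen. A total of 2478 (14.6%) were at least 2-fold higher in marrow and 2603 (15.4%) at least 2-fold higher in spleen, and 245 (1.45%) and 351 (2.07%) were at least 8-fold higher. The 4 libraries of marrow and the 4 of spleen did not overlap in FPKM for 11196 genes (66.1%). With so many genes called, a call alone distinguishes little, and the sections below turn on sizes and on which members go against their list. Differences are log2 values of FPKM divided by TMM factors (a correction for composition) plus 0.1, marrow minus spleen, ± SE from limma with 4 libraries per organ; ± beside an FPKM is the SD. The median over all genes tested was -0.04. It moved to -0.275 without the TMM factors, and 4083 of the 12060 genes then called were higher in marrow (33.9% of calls, against 48.5%), so differences smaller than about that shift depend on the scaling.

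**Figure D1:**
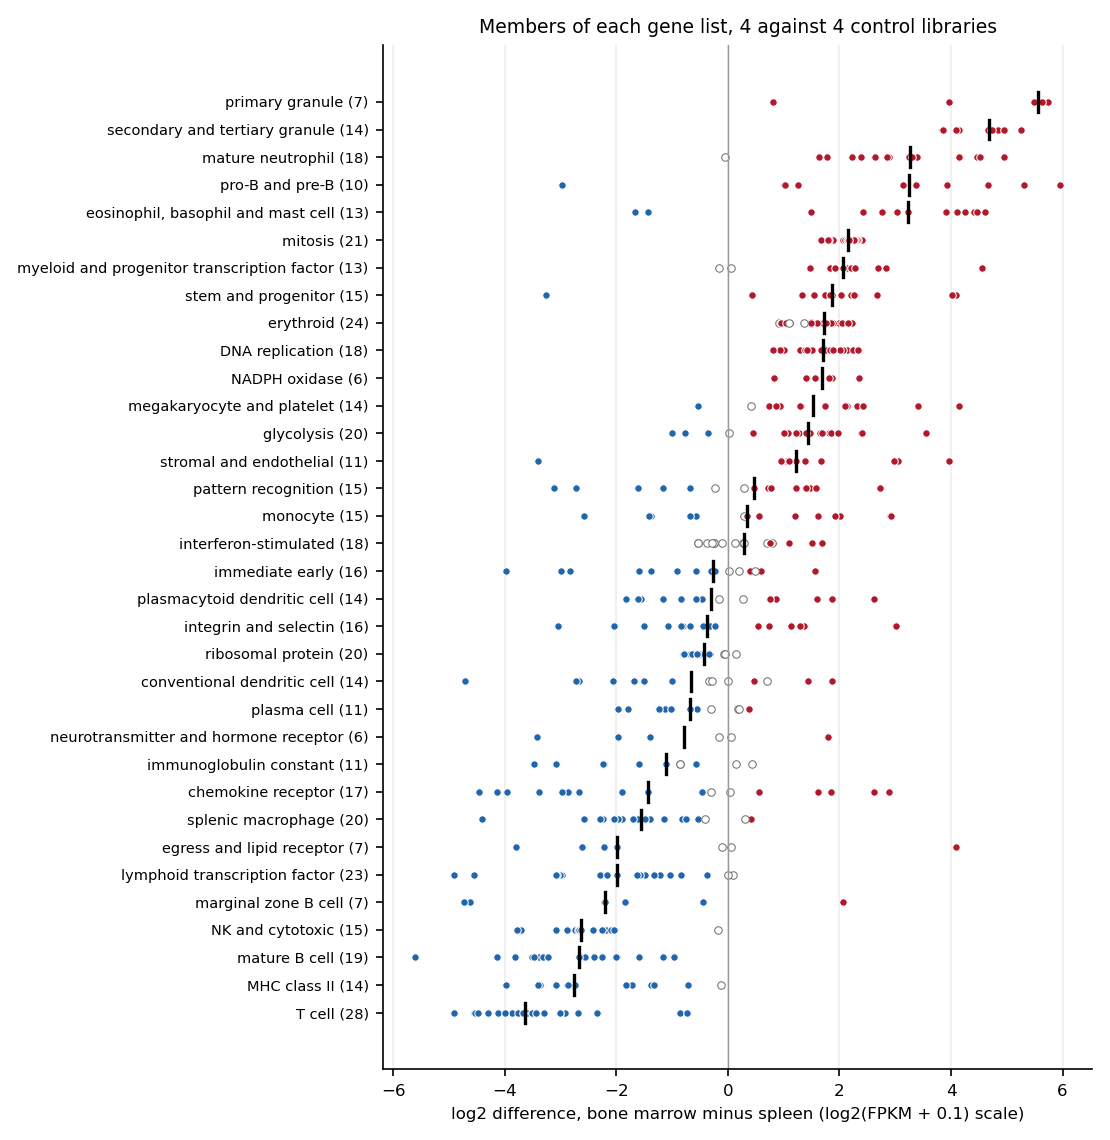
Log2 difference (bone marrow minus spleen, FPKM + 0.1 scale) of each tested member of the 34 gene lists, with the number tested in parentheses, the list median as a black bar, called members filled and others open. Lists are sorted by their median, from 5.55 for primary granule genes to -3.64 for T cell genes, and members of 1 list can lie on both sides of 0, as in the monocyte and chemokine receptor lists.

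The 12 genes with the largest differences toward marrow, among called genes that do not overlap and reach a mean of 20 FPKM, are, apart from Scrg1, known as genes of the neutrophil lineage. Elane, neutrophil elastase, led them. It read 519.7, 552, 498 and 423 FPKM in the marrow libraries and 10.9, 16, 6.34 and 12.5 FPKM in the spleen libraries, a difference of 5.75 ± 0.24 (adjusted p = 1.46e-07), or 53.6-fold. Cathepsin G (Ctsg) followed at 191 ± 23.4 FPKM in marrow and 4.71 ± 1.72 FPKM in spleen, and then myeloperoxidase (Mpo), which makes hypochlorous acid, at 415 ± 87.2 FPKM in marrow and 10.5 ± 3.13 FPKM in spleen. Proteinase 3 (Prtn3) read 231, 225, 207 and 189 FPKM in the marrow libraries and 5.89, 6.58, 3.37 and 5.93 FPKM in the spleen libraries. Toward spleen, the largest difference among messenger RNAs under the same limits (called, no overlap, a mean of 20 FPKM) was Cr2, the complement receptor CD21 of mature B cells and follicular dendritic cells. Its values were 1.09, 0.919, 0.56 and 1.01 FPKM in the marrow libraries and 61.7, 46, 52.8 and 62.7 FPKM in the spleen libraries, a difference of -5.60 ± 0.19 (adjusted p = 7.22e-08), which is 48.6-fold in favour of spleen. Behind it came Tcf7, a transcription factor of T cells, at 4.02 ± 0.469 FPKM in marrow and 147 ± 28.8 FPKM in spleen, and Dtx1, a Deltex gene switched on by Notch in marginal zone B cells, at 1.45 ± 0.358 FPKM in marrow and 44.1 ± 2.75 FPKM in spleen. Ccr6 and Cxcr5, chemokine receptors of B cells and follicular lymphocytes, the T cell receptor constant genes Trac and Trbc2, Cd5 and H2-Eb2 complete the messenger RNAs of that set, with differences from -4.13 to -4.47.

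**Figure D2:**
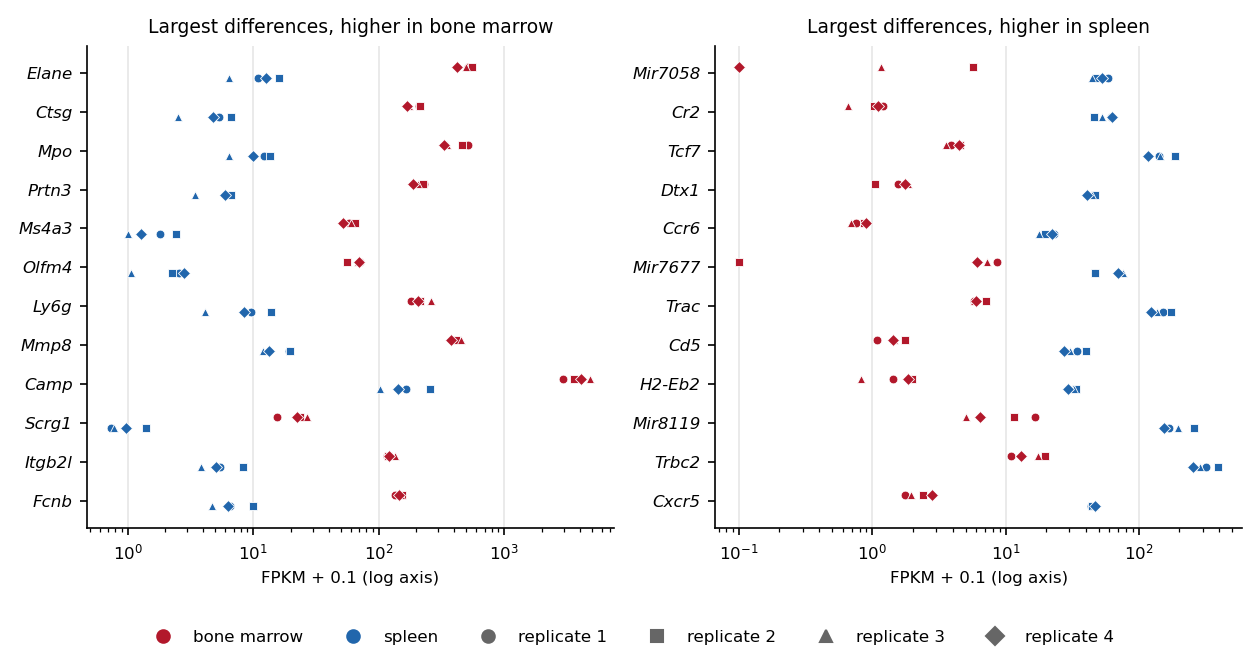
FPKM plus 0.1 on a log axis for the 12 genes with the largest called difference toward bone marrow (left) and the 12 toward spleen (right), 1 point per control library, with the shape giving the replicate. The libraries of marrow and of spleen are separate for each gene, as the rule for these genes requires, and spleen replicate 3 is the lowest spleen library for 11 of the 12 marrow genes, with Elane at 6.34 FPKM.

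A further 3 entries of the spleen set are microRNA hairpin genes, Mir7058, Mir7677 and Mir8119, which lie inside Lat, Itpr3 and Lck. Their hairpins are 75, 67 and 129 bases long, and a poly(A) library does not measure mature microRNA, so their values cannot be told apart from reads of the host transcripts. Without marrow replicate 2 the difference of Mir7677 was -2.73, against -4.32. The hosts themselves were higher in spleen, with Lat, an adaptor of the T cell receptor, at -3.49 ± 0.17 (adjusted p = 2.78e-07) and Lck, its kinase, at -3.69 ± 0.14 (adjusted p = 9.62e-08).

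The medians of the neutrophil lists followed the order in which the maturing cell makes their products, though differences between lists were not tested. All 7 primary granule genes, all 14 secondary and tertiary granule genes and 17 of 18 mature neutrophil genes tested were called higher in marrow, with median differences of 5.55, 4.68 and 3.27, against -0.04 over all genes. Cxcl2 of the mature list did not pass the filter. In summed FPKM the primary granule genes came to 1571, 1554, 1322 and 1196 in the marrow libraries and 54.8, 63.6, 32.9 and 47.2 in the spleen libraries, a ratio of means of 28.4. For the secondary and tertiary set that ratio was 19.6 and for the mature set 17.2. The mature sum, on average 39199 FPKM in marrow and 2286 FPKM in spleen, was mostly S100a8 and S100a9. Its ratio thus describes those genes more than the list. The sums were not divided by TMM factors, unlike the medians. Ngp and Camp, granule proteins of the cathelicidin family, and Ltf, lactoferrin, were among the highest messages of marrow. Ngp stood at 9708 ± 699.8 FPKM in marrow and 469 ± 182 FPKM in spleen, Camp at 3881 ± 797 FPKM in marrow and 166 ± 64.8 FPKM in spleen and Ltf at 2477 ± 207 FPKM in marrow and 122 ± 47.7 FPKM in spleen. S100a8 and S100a9, which form calprotectin, read 10785 ± 1080 FPKM in marrow and 599 ± 211 FPKM in spleen and 25136 ± 4239 FPKM in marrow and 1374 ± 485 FPKM in spleen, and together held 2.05% ± 0.291 of marrow fragments and 0.112% ± 0.0395 of spleen fragments.

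The mature neutrophil list covered a wide range. Ly6g, Mrgpra2b, S100a9, S100a8 and Retnlg differed by 4.46 to 4.95, beside 4.67 for Ltf of the secondary granules, and other members lay lower. Cxcr2, the receptor for the chemokines that release neutrophils from marrow, read 92.4, 90.03, 110.4 and 86.7 FPKM in the marrow libraries and 18.5, 15.8, 12.7 and 14.2 FPKM in the spleen libraries, a difference of 2.88 ± 0.13 (adjusted p = 1.86e-07). Csf3r, the receptor of granulocyte colony-stimulating factor, read 109, 135, 175 and 118 FPKM in the marrow libraries and 48.4, 48.4, 41 and 45.1 FPKM in the spleen libraries, and its difference was 1.78 ± 0.14. The organs did not overlap for either gene, but the fold was 7.36 for Cxcr2 and 3.43 for Csf3r, against 25.4 for Ltf. Il1b, an inflammatory cytokine, was the member of the mature list that was not called, with 8.84, 14.6, 15.2 and 13.3 FPKM in the marrow libraries and 19.2, 16.5, 12.1 and 15.3 FPKM in the spleen libraries (-0.05 ± 0.18, adjusted p = 0.826). Cst7, the protease inhibitor cystatin F, stood apart among the primary granule genes at 0.81 ± 0.15. It is also a gene of cytotoxic lymphocytes. The subunits of the NADPH oxidase, the enzyme of the oxidative burst, were called higher in marrow in 6 of 6 cases with a median of 1.68, from 0.82 for Rac2, a GTPase of all blood lineages, to 2.34 for Ncf1.

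**Figure D3:**
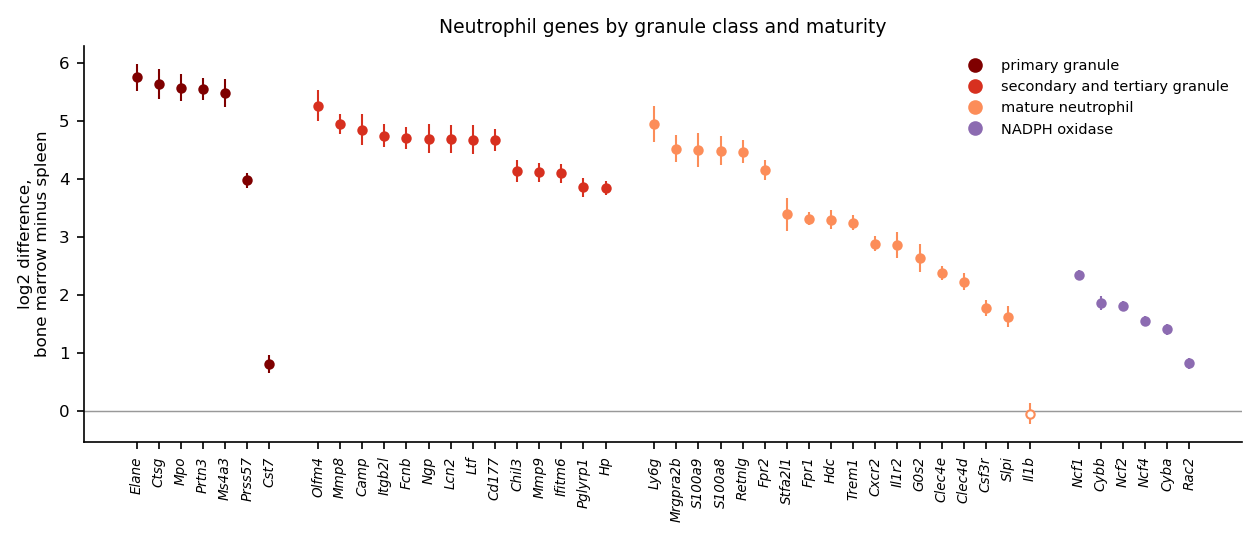
Log2 difference (bone marrow minus spleen, FPKM + 0.1 scale) for the tested members of the primary granule, secondary and tertiary granule, mature neutrophil and NADPH oxidase lists, sorted within each list. Bars are the SE from limma with 4 libraries per organ and the open point (Il1b) is not called; primary granule genes other than Prss57 and Cst7 sit above 5 and the oxidase subunits no higher than 2.34.

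The windows around the start sites of 3 primary and 3 secondary granule genes are shown because these genes moved together by large amounts; among their lists they were picked, after the search, as genes that hold the letters searched. They run from 250 bases before to 50 after the annotated start, on the coding strand, from RefSeq on GRCm38.p6. Capitals mark matches to the PU.1 motif GAGGAAGT in the first 3 and to the C/EBP motif TTGCNNAA in the others, on either strand. PU.1 (Spi1) and the C/EBP factors are the classic regulators of myeloid genes.
Elane (chr10:79886062-79886361, plus strand): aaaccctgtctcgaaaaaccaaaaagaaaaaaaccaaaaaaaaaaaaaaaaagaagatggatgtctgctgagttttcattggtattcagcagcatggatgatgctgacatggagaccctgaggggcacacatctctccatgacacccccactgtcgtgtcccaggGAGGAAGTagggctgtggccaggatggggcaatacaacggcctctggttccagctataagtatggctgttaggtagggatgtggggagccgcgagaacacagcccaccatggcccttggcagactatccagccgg
Prtn3 (chr10:79879417-79879716, plus strand): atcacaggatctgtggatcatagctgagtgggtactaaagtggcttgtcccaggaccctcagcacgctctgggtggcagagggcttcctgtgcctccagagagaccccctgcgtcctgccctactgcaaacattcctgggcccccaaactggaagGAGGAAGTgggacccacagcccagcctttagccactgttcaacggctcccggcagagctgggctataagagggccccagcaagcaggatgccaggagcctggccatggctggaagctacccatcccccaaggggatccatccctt
Mpo (chr11:87793534-87793833, plus strand): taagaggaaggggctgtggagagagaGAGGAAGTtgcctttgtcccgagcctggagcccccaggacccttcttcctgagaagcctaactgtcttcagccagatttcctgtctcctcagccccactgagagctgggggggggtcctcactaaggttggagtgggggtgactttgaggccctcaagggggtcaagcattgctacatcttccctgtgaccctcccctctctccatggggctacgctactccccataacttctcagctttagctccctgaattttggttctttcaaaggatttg
Ltf (chr9:111019042-111019341, plus strand): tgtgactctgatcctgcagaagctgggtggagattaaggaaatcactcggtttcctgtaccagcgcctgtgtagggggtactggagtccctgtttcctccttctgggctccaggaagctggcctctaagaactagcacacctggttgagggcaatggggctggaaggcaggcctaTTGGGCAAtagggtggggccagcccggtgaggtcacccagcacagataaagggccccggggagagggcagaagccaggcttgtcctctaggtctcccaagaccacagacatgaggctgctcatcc
Ngp (chr9:110419558-110419857, plus strand): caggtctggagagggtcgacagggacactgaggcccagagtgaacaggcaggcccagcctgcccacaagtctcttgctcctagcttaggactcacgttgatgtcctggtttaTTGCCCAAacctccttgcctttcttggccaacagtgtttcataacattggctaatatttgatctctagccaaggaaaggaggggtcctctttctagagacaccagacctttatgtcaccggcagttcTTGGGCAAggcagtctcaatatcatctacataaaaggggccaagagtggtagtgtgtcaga
Lcn2 (chr2:32387690-32387989, minus strand): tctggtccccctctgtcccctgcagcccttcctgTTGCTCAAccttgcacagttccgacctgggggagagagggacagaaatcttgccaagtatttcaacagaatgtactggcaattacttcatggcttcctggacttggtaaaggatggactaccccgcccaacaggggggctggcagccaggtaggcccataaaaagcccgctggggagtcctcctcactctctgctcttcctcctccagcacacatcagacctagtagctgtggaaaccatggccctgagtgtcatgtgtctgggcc
Elane and Prtn3 are neighbours on chromosome 10. The PU.1 letters occurred in 7 of the 11 leading marrow genes with a window (Elane, Itgb2l, Ly6g, Mmp8, Mpo, Olfm4 and Prtn3), in 1 of 6 leading spleen genes (Cd5) and in 3.2% of 32851 windows of the table. The C/EBP letters occurred in 4 of those 11 (Fcnb, Ly6g, Mmp8 and Ms4a3), in 0 of the 6 and in 10.8% of windows. Ly6g and Mmp8 held both motifs, with no base shared between the matches. In all 10 motifs were searched on both strands, and PU.1 and C/EBP were picked for printing after their matches were seen, so their counts are a description only. Of the 8 others, a looser C/EBP form (TTNNGNAA) occurred in 6 of the 11 marrow genes, 2 of the 6 spleen genes and 40.7% of windows, and the CCAAT box in 6, 3 and 37.4%. The RUNX letters (TGTGGT) occurred in 1 of the 11, 1 of the 6 and 16.8% of windows, and the NF-kB letters in 1, 0 and 1.63%. The octamer (ATTTGCAT) occurred in 0 of the 11, 1 of the 6 (Ccr6) and 1.74% of windows, and the EBF1 letters in 0, 0 and 0.904%. The GATA letters, spelled AGATAAG, occurred in 0 of the 11 marrow genes, 0 of the 6 spleen genes and 3.04% of windows. Those of MYB, spelled AACTGAC, likewise occurred in 0 of the 11, 0 of the 6 and 3.0% of windows. Other overlaps between motifs were not counted. A match is a description of the letters, not of binding.

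Messages of myeloid transcription factors were compared as well, and whether these factors act on the genes above was not tested. Of 13 myeloid and progenitor transcription factors, 11 were called higher in marrow and 2 were not called, with a median of 2.07. Cebpe, the factor of secondary granule genes, read 103, 104, 117 and 101 FPKM in the marrow libraries and 5.05, 8.16, 3.52 and 5.28 FPKM in the spleen libraries, a difference of 4.55 ± 0.21 (adjusted p = 2.36e-07). Spi1 read 91.1, 105, 119.6 and 108 FPKM in the marrow libraries and 34.4, 38.7, 33.3 and 34.2 FPKM in the spleen libraries and Cebpa, which sets the granulocyte fate, 27, 28.4, 26.4 and 25.9 FPKM in the marrow libraries and 7.15, 8.25, 7.51 and 6.08 FPKM in the spleen libraries. These 3 genes were separated between the organs by unequal amounts, 23.5-fold for Cebpe, 3.56-fold for Spi1 and 4.38-fold for Cebpa. Of 20 glycolysis genes, 16 were higher in marrow, 3 in spleen and 1 was not called (median 1.43). Hk3, a hexokinase of myeloid cells, read 101, 93.9, 106 and 95.5 FPKM in the marrow libraries and 9.56, 12.1, 9.4 and 8.73 FPKM in the spleen libraries, a difference of 3.56 ± 0.11 (adjusted p = 5.77e-08), and the glucose transporter Slc2a3 differed by 2.40 ± 0.09. The other transporter, Slc2a1, lay on the spleen side at -0.77 ± 0.07 (adjusted p = 1.73e-05), together with Aldoc and Pfkp.

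Eosinophil, basophil and mast cell genes were the other granulocyte set with a large difference. Of 13 tested, 11 were called higher in marrow and 2 higher in spleen, with a median of 3.22. Il4 did not pass the filter. Prg2, the eosinophil major basic protein, read 708, 861, 1333 and 709 FPKM in the marrow libraries and 66.9, 69, 33.8 and 35.5 FPKM in the spleen libraries, and Epx, eosinophil peroxidase, 44.1, 45.7, 63.8 and 33.8 FPKM in the marrow libraries and 3.43, 2.86, 1.55 and 2.03 FPKM in the spleen libraries. The basophil proteases Prss34 and Mcpt8 differed by 4.61 ± 0.23 and 4.25 ± 0.23. The organs did not overlap for any of these granule genes. The surface receptors of the eosinophil went the other way. Ccr3, the eotaxin receptor, read 3.1, 4.41, 3.73 and 3.05 FPKM in the marrow libraries and 9.47, 11.5, 16.2 and 9.76 FPKM in the spleen libraries (-1.43 ± 0.19 (adjusted p = 1.36e-04)), and Il5ra, the interleukin 5 receptor, which B-1 cells also carry, read 1.3, 1.3, 1.63 and 0.925 FPKM in the marrow libraries and 4.89, 4.13, 5.14 and 6 FPKM in the spleen libraries (-1.67 ± 0.18 (adjusted p = 4.10e-05)).

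Monocyte genes were called in both directions. Of 15, 8 were called higher in marrow, 6 higher in spleen and 1 was not called, with a median of 0.34 (0.53 without marrow replicate 1 and 0.52 without spleen replicate 4). Ly6c2, the surface marker of classical monocytes, read 188, 234, 246 and 251 FPKM in the marrow libraries and 34.1, 41.5, 33.5 and 36.3 FPKM in the spleen libraries (2.90 ± 0.10 (adjusted p = 7.22e-08)). F13a1, coagulation factor XIII, differed by 2.92 ± 0.23 and Ccr2, the receptor through which these cells leave marrow, by 1.61 ± 0.19. Cd300e, Treml4, Ace and the factor Nr4a1, known from the patrolling monocyte, lay on the spleen side at -2.58 ± 0.30, -1.41 ± 0.20, -1.37 ± 0.29 and -1.38 ± 0.13. The list did not divide cleanly by subset. Cd14, the endotoxin co-receptor of classical monocytes, was higher in spleen (-0.68 ± 0.18 (adjusted p = 0.00827)), a call not made with all 16 libraries in the fit (-0.67). Cx3cr1, the fractalkine receptor that is highest on patrolling monocytes, was higher in marrow (0.55 ± 0.20 (adjusted p = 0.0315)), with overlapping libraries. That call was lost without TMM factors (0.31), with upper quartile scaling (0.42), with reduced totals (0.33), without a filter (0.55), with all 16 libraries in the fit (0.56) and without marrow replicate 1, 2 or 4 or spleen replicate 1 or 4 (0.39 to 0.53).

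Genes of stem cells and progenitors were higher in marrow, at low levels. Of 18 genes, 15 passed the filter, 14 of these were called higher in marrow and 1 higher in spleen, with a median of 1.87. Of those 14, 13 were at least 2-fold higher in marrow. Cd34 read 5.02, 6.03, 3.64 and 4 FPKM in the marrow libraries and 0.266, 0.344, 0.162 and 0.136 FPKM in the spleen libraries, a difference of 4.09 ± 0.23 (adjusted p = 7.80e-07), and Kit, the stem cell factor receptor, read 7.82, 8.38, 5.89 and 6.63 FPKM in the marrow libraries and 2.35, 1.99, 2.3 and 2.54 FPKM in the spleen libraries. No marrow library overlapped with a spleen library for either gene. Slamf1 (CD150), which marks long-lived stem cells but is also a receptor of activated T and B cells, was the member higher in spleen, at 0.198 ± 0.0511 FPKM in marrow and 3.13 ± 0.126 FPKM in spleen.

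Cell division genes were higher in marrow without exception among those listed. All 21 mitosis genes and all 18 DNA replication genes were called, with medians of 2.15 and 1.70. Cdk1, the kinase that starts mitosis, read 21.8, 30.1, 30.8 and 28.9 FPKM in the marrow libraries and 9.08, 3.79, 6.42 and 6.38 FPKM in the spleen libraries (2.40 ± 0.23 (adjusted p = 1.84e-05)). Top2a, topoisomerase II of dividing cells, read 63.5, 65.7, 58.6 and 64 FPKM in the marrow libraries and 24.5, 13.7, 14.7 and 16.8 FPKM in the spleen libraries. Mki67, a protein of cycling nuclei, read 140.1, 129, 112 and 118 FPKM in the marrow libraries and 76.7, 22.9, 47.8 and 55.7 FPKM in the spleen libraries, with replicate 2 well below the other spleen libraries. The summed mitosis genes were 341, 148, 211.5 and 246 FPKM in the spleen libraries and the summed replication genes 316, 224.2, 238.5 and 245.6 FPKM. Replicate 1 was the highest and replicate 2 the lowest in both sums, and replicate 1 had the wider gap to its neighbour. Without replicate 1 the medians were 2.27 and 1.77 and without replicate 2 they were 1.99 and 1.59, and all members of both lists were called either way. The licensing helicase genes Mcm2 to Mcm7 differed by 1.01 to 1.74. The lists overlapped, with mitosis genes from 1.66 to 2.40 and replication genes from 0.81 to 2.34, and the difference between them was not tested.

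Spleen replicate 2 was low in red cell genes. Of 24 erythroid genes, 20 were called higher in marrow and 4 were not called, with a median of 1.73. That count depends on the libraries and the scaling. It was 9 without marrow replicate 2 or 3, 14 without marrow replicate 1, 13 without marrow replicate 4, 10 without TMM factors and 12 with all 16 libraries in the fit, with medians of 1.49 to 1.79. No member was called higher in spleen under these settings. Klf1, the erythroid master factor, read 39.5, 53.2, 53.3 and 49.4 FPKM in the marrow libraries and 24.4, 2.48, 19.8 and 18.4 FPKM in the spleen libraries (2.22 ± 0.63 (adjusted p = 0.0112)). Slc4a1, the anion exchanger band 3, read 309.8, 326, 334 and 286 FPKM in the marrow libraries and 260.1, 29.2, 186 and 222 FPKM in the spleen libraries (1.48 ± 0.61, adjusted p = 0.0535). In both of these genes spleen replicate 2 lay far below the other spleen libraries. Without it the median of the list was 1.01 and 22 of 24 genes were called (24 of 24 without spleen replicate 1), with differences of 1.44 for Klf1 and 0.72 for Slc4a1, which was then called. Slc4a1 was also called without spleen replicate 1 (1.77). Haemoglobin messages overlapped between the organs, with Hbb-bs at 5771, 10543, 12979 and 7770 FPKM in the marrow libraries and 8172, 2753, 6349 and 6841 FPKM in the spleen libraries (0.91 ± 0.39, adjusted p = 0.064), which was called without marrow replicate 1 or spleen replicate 1 (1.11 and 1.05). The part that red cell precursors carried over into the CD45+ cells play in these values was not tested. The share of fragments on haemoglobin genes did not differ beyond the spread (2.0% ± 0.65 against 1.23% ± 0.471, exact permutation test over 70 splits, two-sided, p = 0.143, adjusted over 11 measures 0.175). Spleen replicate 2 was also the highest spleen library for summed primary and secondary granule genes, at 63.6 and 1667 FPKM.

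Platelet and megakaryocyte genes were called higher in marrow in 12 of 14 cases, with 1 higher in spleen, 1 not called and a median of 1.52. Pf4, platelet factor 4, read 13.3, 27, 14.2 and 20.1 FPKM in the marrow libraries and 2.17, 2.04, 1.47 and 2 FPKM in the spleen libraries, and Gp1bb, a subunit of the von Willebrand factor receptor, 16.5, 22.6, 23.1 and 19.2 FPKM in the marrow libraries and 1.43, 1.63, 0.909 and 1.13 FPKM in the spleen libraries. The organs did not overlap for either gene. Clec1b (CLEC-2), a platelet receptor for podoplanin, was the member on the spleen side at -0.54 ± 0.19. That call was lost without marrow replicate 1 or 3 or spleen replicate 2 or 3 (-0.41 to -0.54), and also without a filter on low values.

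**Figure D4:**
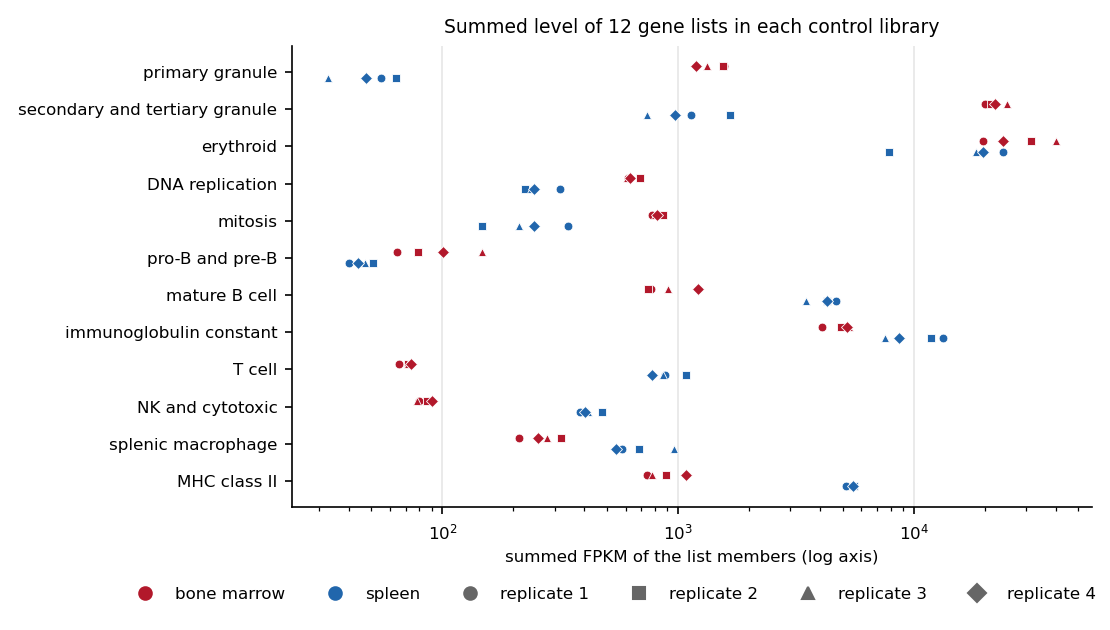
Summed FPKM of the members of 12 gene lists on a log axis, 1 point per control library, with colour for the organ and shape for the replicate. Granule, division and immature B cell lists lie to the right in marrow and lymphoid lists to the right in spleen, while erythroid sums overlap and spleen replicate 2 stands lowest there at 7825 FPKM.

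In the B lineage the early and late stages fell on opposite sides. Of 10 genes of pro-B and pre-B cells, 9 were called higher in marrow and 1 higher in spleen, with a median of 3.25. Vpreb2, part of the surrogate light chain of the pre-B receptor, read 2.05, 3.61, 6.69 and 3.15 FPKM in the marrow libraries and had no read in spleen, which makes it at least 33.5-fold higher against a floor of 3 reads over the 4 spleen libraries. Igll1, the other part, read 5.29, 7.09, 11.3 and 6.83 FPKM in the marrow libraries and 0, 0, 0.0545 and 0.105 FPKM in the spleen libraries. The recombinase gene Rag1 read 7.66, 5.14, 9.44 and 9.51 FPKM in the marrow libraries and 0.18, 0.269, 0.232 and 0.38 FPKM in the spleen libraries (4.66 ± 0.24 (adjusted p = 4.11e-07)). Marrow replicate 3 was the highest library for Vpreb1, Vpreb2, Vpreb3 and Igll1, and with any 1 marrow library left out 6 of the genes passed the filter, with a median of 1.93 to 2.46. The filter of 10 reads in at least 4 libraries was kept there, and genes that reach 10 reads only in marrow could not meet it. Lef1, a factor of pre-B cells and of T cells, was the member higher in spleen, at -2.97 ± 0.18.

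Mature B cell genes were higher in spleen in 19 of 19 cases, with a median of -2.67. Among the members named here, genes switched on early differed by less than genes of the follicle, though differences between genes were not tested. Cd79a, a signalling chain present from the pro-B cell on, read 63.3, 73.6, 119 and 108 FPKM in the marrow libraries and 387, 394, 430.3 and 452 FPKM in the spleen libraries (-1.99 ± 0.19, or 3.97-fold higher in spleen). Pax5, the B lineage factor, also switched on early, differed by -2.26 ± 0.17. Fcer2a (CD23) and Ighd, the IgD heavy chain, which appear when B cells mature in the follicle, differed by -3.81 ± 0.16 and -3.48 ± 0.14, and Cr2 by -5.60 ± 0.19. Ighm, the IgM heavy chain that immature B cells already make, differed by -1.59 ± 0.26. Of 7 marginal zone genes, 6 were higher in spleen. Fcrl5, an Fc receptor-like protein, read 0.163, 0.243, 0.0916 and 0.252 FPKM in the marrow libraries and 10.4, 8.78, 5.67 and 9.77 FPKM in the spleen libraries (-4.74 ± 0.24 (adjusted p = 4.33e-07)). Cd9, a tetraspanin that megakaryocytes and myeloid cells also carry, was the member higher in marrow, at 73.1 ± 10.1 FPKM in marrow and 20.9 ± 3.99 FPKM in spleen.

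Plasma cell genes had the median closest to level among the B lineage lists, but the list was not flat. Of 11, 1 was called higher in marrow, 7 higher in spleen and 3 were not called, with a median of -0.68. Of the called members, 5 were at least 2-fold higher in spleen and 0 at least 2-fold higher in marrow. Jchain, which links IgM and IgA, read 177, 208, 209.6 and 168 FPKM in the marrow libraries and 349, 310.3, 236 and 233 FPKM in the spleen libraries (-0.30 ± 0.15, adjusted p = 0.0915), and was called at -0.55 without the TMM factors and at -0.41 and -0.43 without spleen replicate 3 or 4. Sdc1 (CD138) read 3.6, 3.47, 4.35 and 3.83 FPKM in the marrow libraries and 5.36, 4.39, 3.11 and 3.37 FPKM in the spleen libraries (0.18 ± 0.17, adjusted p = 0.37). Xbp1, a factor of the secretory load, was the called member on the marrow side, by 0.37 ± 0.11. It was not called without the TMM factors (0.13) or without spleen replicate 4 (0.28), nor with upper quartile scaling or reduced totals. Prdm1 (Blimp-1), which T cells use too, differed by -1.97 ± 0.17. Among 11 immunoglobulin constant genes tested, 7 were higher in spleen and 4 were not called (median -1.11). Igha, the IgA heavy chain, read 579, 809, 1111 and 582 FPKM in the marrow libraries and 838, 676, 932 and 762 FPKM in the spleen libraries and its libraries overlapped. Ighg2b, an IgG heavy chain, read 39.8, 95.1, 50.1 and 51.3 FPKM in the marrow libraries and 298, 291, 51.1 and 46.4 FPKM in the spleen libraries, with spleen replicates 1 and 2 several times above replicates 3 and 4, which were at the level of marrow (-0.85 ± 0.65, adjusted p = 0.265). Ighg3 was also higher in those spleen replicates, with 380.1, 208, 31.6 and 56 FPKM against 14.9, 10.9, 5.16 and 15.7 in marrow. Immunoglobulin segments and constant genes together held 0.749% ± 0.0793 of fragments in marrow and 1.61% ± 0.387 in spleen (exact permutation test, two-sided, p = 0.0286, the smallest that 4 against 4 allows, adjusted p = 0.0393).

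T cell genes were higher in spleen in 28 of 28 cases, with a median of -3.64. In summed FPKM they came to 65.3, 71.7, 71.6 and 73.7 in marrow and 878.7, 1077, 860 and 773.3 in spleen, a ratio of means of 12.7 in favour of spleen. Cd3e, a chain of the receptor complex, read 2.62, 2.98, 2.36 and 2.5 FPKM in the marrow libraries and 47.1, 57.2, 43.9 and 40.5 FPKM in the spleen libraries (-3.87 ± 0.12 (adjusted p = 5.17e-08)). The co-receptors Cd4 and Cd8a differed by -3.01 ± 0.11 and -3.99 ± 0.12, and Cd8b1, the partner of Cd8a, by -4.12 ± 0.15. Ctla4, which activated and regulatory T cells carry, was at -3.77 ± 0.19. Foxp3, the factor of regulatory T cells, differed by much less, with 2.95, 3.07, 3.82 and 3.03 FPKM in the marrow libraries and 6.7, 7.94, 7.52 and 6.02 FPKM in the spleen libraries (-0.87 ± 0.13 (adjusted p = 2.73e-04), or 1.82-fold). Genes of natural killer and cytotoxic cells were higher in spleen in 14 of 15 cases (median -2.64). Gzma, granzyme A, read 8.38, 5.45, 8.71 and 10.1 FPKM in the marrow libraries and 109, 138, 129.6 and 126 FPKM in the spleen libraries and Prf1, perforin, differed by -3.78 ± 0.17. Both were higher in all 4 spleen libraries than in any of marrow. Nkg7, a protein of cytotoxic granules, was not called (-0.17 ± 0.09, adjusted p = 0.109), but was at -0.42 without the TMM factors and at -0.27 without spleen replicate 4, both called.

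Of 23 lymphoid transcription factors, 21 were higher in spleen and 2 were not called, with a median of -1.99. Bcl11b and Gata3, factors of T cells, differed by -4.55 ± 0.12 and -3.02 ± 0.18. Ebf1 and Bach2, factors that B cells use from the progenitor stage on, differed by -1.31 ± 0.21 and -1.21 ± 0.18. Klf2, which keeps naive lymphocytes quiescent and drives S1pr1, read 37.6, 53, 55.6 and 58.9 FPKM in the marrow libraries and 131, 157, 157 and 155 FPKM in the spleen libraries, with no overlap between the organs.

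Genes of antigen presentation were higher in spleen. Of 14 MHC class II genes, 13 were called and 1 was not, with a median of -2.77. H2-Aa, a class II alpha chain, read 61, 77.6, 53.5 and 87.6 FPKM in the marrow libraries and 559.8, 616, 609 and 616 FPKM in the spleen libraries (-2.88 ± 0.13 (adjusted p = 2.56e-07)). Ciita, the factor that switches the class II genes on, read 2.44, 2.41, 1.23 and 2.39 FPKM in the marrow libraries and 37.6, 38.8, 41.2 and 41.7 FPKM in the spleen libraries (-3.98 ± 0.20 (adjusted p = 3.63e-07), or 15.8-fold against 7.36-fold for H2-Aa). Ctss and H2-DMa, cathepsin S and a chain of the peptide exchanger, differed by -0.71 ± 0.13 and -1.38 ± 0.08.

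Dendritic cell genes did not move as a block. Of 14 conventional dendritic cell genes, 3 were higher in marrow, 7 higher in spleen and 4 not called (median -0.67). Xcr1, the chemokine receptor of the cross-presenting subset, read 0.0989, 0.079, 0.0537 and 0.182 FPKM in the marrow libraries and 1.79, 0.977, 1.46 and 1.2 FPKM in the spleen libraries (-2.67 ± 0.24 (adjusted p = 1.24e-05)), while Clec9a, a receptor for dead cells on the same subset and its precursors, read 1.89, 2.65, 1.23 and 2.05 FPKM in the marrow libraries and 3.14, 2.64, 2.49 and 3.19 FPKM in the spleen libraries (adjusted p = 0.163, and called at -0.57 without the TMM factors). Zbtb46, the factor common to these cells, was not called and overlapped at 0.71, 0.893, 0.656 and 0.825 FPKM in the marrow libraries and 1.03, 0.691, 0.894 and 1.04 FPKM in the spleen libraries. Fscn1, fascin of mature migrating dendritic cells, differed by -4.71 ± 0.15. Of 14 plasmacytoid genes, 5 were higher in marrow, 7 in spleen and 2 were not called (median -0.31). Siglech, a lectin of these cells, read 15.8, 13.4, 10.1 and 14.3 FPKM in the marrow libraries and 5.39, 4.31, 4.3 and 6.85 FPKM in the spleen libraries (1.59 ± 0.18 (adjusted p = 5.52e-05)), and Klk1 differed by 1.87 ± 0.23. The members on the spleen side include Ly6d, Spib, Tcf4, Tlr7 and Tlr9, which B cells express as well.

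Macrophage genes of the spleen were higher there in 17 of 20 cases, with 1 higher in marrow, 2 not called and a median of -1.56. Marco, a scavenger receptor of marginal zone macrophages, read 0.261, 0.292, 0.497 and 0.105 FPKM in the marrow libraries and 9.05, 7.67, 9.28 and 9.28 FPKM in the spleen libraries (-4.40 ± 0.29 (adjusted p = 1.81e-06)). Spic, the factor of red pulp macrophages, read 1.34, 1.87, 1.78 and 1.33 FPKM in the marrow libraries and 8.82, 9.22, 11.8 and 7.22 FPKM in the spleen libraries, and C1qa, a chain of complement C1q, 15.7, 27.7, 25.4 and 20.1 FPKM in the marrow libraries and 58.6, 80.0, 113 and 53.2 FPKM in the spleen libraries. The organs were separated for all of these, and spleen replicate 3 was the highest library for Spic, C1qa, Vcam1 and Timd4. The general macrophage gene Cd68 was the one higher in marrow, by 0.42 ± 0.12, a call lost under 3 of the 4 other scalings and without spleen replicate 1 or 4 (0.30 and 0.34).

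Chemokine receptors separated the organs in both directions. Of 17, 5 were higher in marrow, 10 higher in spleen and 2 were not called. The median was -1.43, and -0.45 to -0.55 when any 1 spleen library was left out, with 15 receptors then tested. The filter still asked for 10 reads in at least 4 libraries, which genes that reach 10 reads only in spleen could no longer meet. Cxcr4, the receptor for Cxcl12 that holds cells in marrow, was the highest of them there, at 159, 185, 212 and 181 FPKM in the marrow libraries and 55.9, 64.4, 53 and 69.4 FPKM in the spleen libraries (1.85 ± 0.11 (adjusted p = 8.01e-07)). Ccr1, a receptor of myeloid cells for inflammatory chemokines, read 30.9, 36.6, 36.1 and 32.8 FPKM in the marrow libraries and 6.94, 7.26, 5.41 and 6.52 FPKM in the spleen libraries. On the spleen side stood the receptors of the white pulp. Cxcr5, which leads B cells into follicles, read 1.64, 2.3, 1.84 and 2.69 FPKM in the marrow libraries and 43.5, 44.5, 45.7 and 46.8 FPKM in the spleen libraries (-4.13 ± 0.12 (adjusted p = 5.17e-08)). Ccr7, which leads T cells and dendritic cells into the T cell area, read 3.85, 3.63, 3.63 and 4.67 FPKM in the marrow libraries and 67.6, 82.2, 75.3 and 73 FPKM in the spleen libraries (-3.97 ± 0.10 (adjusted p = 3.45e-08)). No marrow library came near a spleen library for either receptor, and Ccr6, of B cells and helper T cells, was 22.1-fold higher in spleen.

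Among 7 receptors for egress signals and lipids, 1 was higher in marrow, 4 higher in spleen and 2 were not called. S1pr1, the sphingosine 1-phosphate receptor through which lymphocytes leave tissues, read 4.79, 6.01, 4.26 and 6.07 FPKM in the marrow libraries and 79.8, 96.3, 89.4 and 84.8 FPKM in the spleen libraries (-3.79 ± 0.11 (adjusted p = 5.06e-08)). S1pr4, the form found on most leukocytes, was not called and overlapped at 36.7, 35.3, 40.9 and 38.8 FPKM in the marrow libraries and 39.3, 43.8, 44.4 and 45 FPKM in the spleen libraries (0.06 ± 0.08, adjusted p = 0.505). Gpr183 (EBI2), a receptor for oxysterols that positions B cells, read 2.73 ± 0.398 FPKM in marrow and 20.2 ± 0.469 FPKM in spleen. Ltb4r1, the leukotriene B4 receptor of neutrophils, was the one on the marrow side, with 97.1, 94.9, 103 and 99.1 FPKM in the marrow libraries and 6.84, 9.1, 5.37 and 6.27 FPKM in the spleen libraries (4.09 ± 0.14 (adjusted p = 7.22e-08)). Of 16 integrins, selectins and their ligands, 6 were higher in marrow and 10 in spleen (median -0.38). Itgam (CD11b), of myeloid cells, read 209, 207, 219 and 212 FPKM in the marrow libraries and 29.8, 36.3, 27.7 and 30.4 FPKM in the spleen libraries (3.02 ± 0.09 (adjusted p = 4.76e-08)). Its common partner Itgb2 differed by 1.37 ± 0.09, while Itgal (CD11a), the partner that lymphocytes use, lay on the spleen side by -0.45 ± 0.08, and Itgae (CD103) by -3.06 ± 0.14.

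Receptors for signals from nerves and hormones were mostly near the limit of detection. Of 15, 6 passed the filter, of which 1 was higher in marrow, 3 higher in spleen and 2 were not called. Adrb3, the beta3 adrenergic receptor, had no read in any of the 8 libraries, and Adra2a read at most 0.0555 FPKM. The glucocorticoid receptor Nr3c1 read 16.3, 14.5, 13 and 15.3 FPKM in the marrow libraries and 18.1, 18.9, 21.3 and 20.02 FPKM in the spleen libraries (-0.16 ± 0.10, adjusted p = 0.156). Its FPKM did not overlap between the organs, but the gap was smaller than the shift between scalings, and it was called at -0.41 without the TMM factors and at -0.22 without marrow replicate 1. Adrb1, the beta1 receptor, was low in both organs and higher in spleen, at 0.177, 0.198, 0.256 and 0.217 FPKM in the marrow libraries and 1.28, 1.28, 1.59 and 1.07 FPKM in the spleen libraries (-1.97 ± 0.16 (adjusted p = 5.90e-06)). Vipr1, a receptor for vasoactive intestinal peptide found on T cells, read 0.358, 0.255, 0.399 and 0.326 FPKM in the marrow libraries and 4.99, 6.02, 5.13 and 4.92 FPKM in the spleen libraries (-3.42 ± 0.15 (adjusted p = 1.76e-07)), and Chrm3, a muscarinic receptor, was the one higher in marrow (0.789 ± 0.143 FPKM in marrow and 0.195 ± 0.0708 FPKM in spleen).

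**Figure D5:**
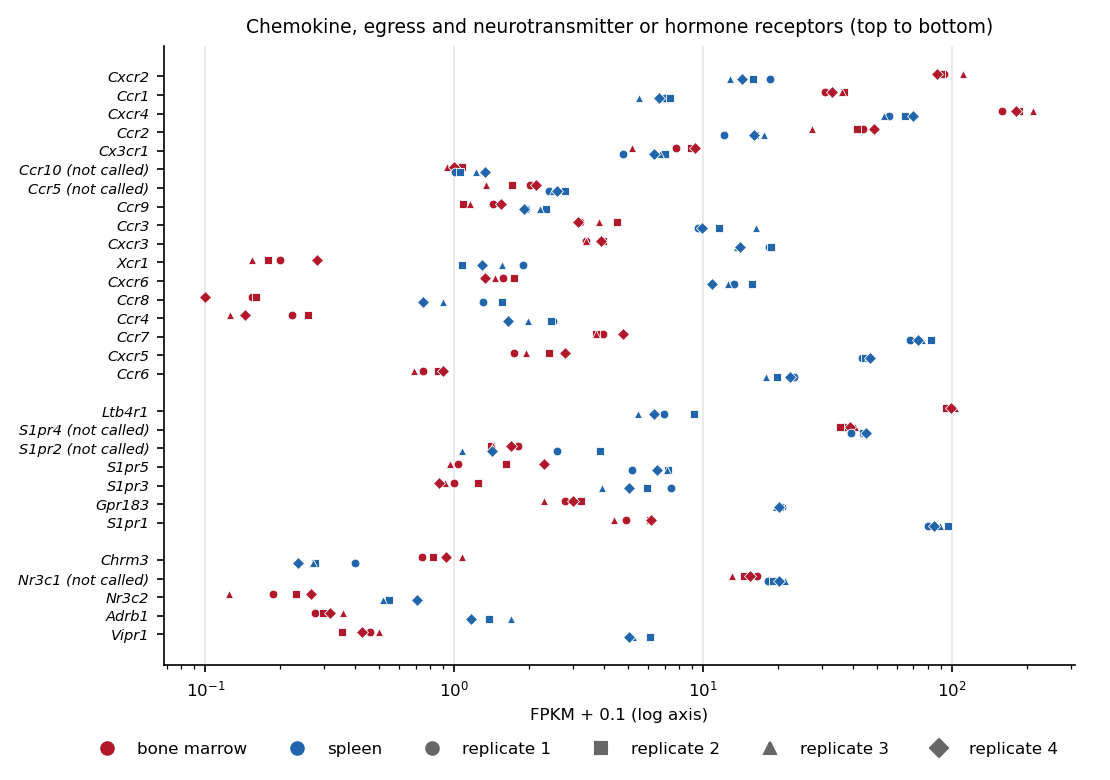
FPKM plus 0.1 on a log axis for the chemokine receptors, egress and lipid receptors, and neurotransmitter and hormone receptors that were tested and are reported here (3 blocks, top to bottom), 1 point per control library, sorted by difference within a block. Cxcr2, Ccr1, Cxcr4 and Ltb4r1 lie to the right in marrow, Cxcr5, Ccr7, Ccr6 and S1pr1 in spleen, and Nr3c1 and S1pr4 are not called.

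Sensors of microbes differed by type. Of 15 pattern recognition genes, 8 were higher in marrow, 5 in spleen and 2 were not called (median 0.47). The flagellin receptor Tlr5 read 2.64, 2.88, 2.3 and 1.82 FPKM in the marrow libraries and 0.202, 0.307, 0.431 and 0.428 FPKM in the spleen libraries (2.73 ± 0.22 (adjusted p = 6.06e-06)), and Tlr2, a receptor for lipoproteins, 11.9, 12.5, 11.2 and 12.7 FPKM in the marrow libraries and 5.29, 4.86, 5.07 and 5.15 FPKM in the spleen libraries. Tlr1, which pairs with Tlr2 and is high in B cells, was at 2.99 ± 0.473 FPKM in marrow and 31.5 ± 2.04 FPKM in spleen (-3.12 ± 0.10 (adjusted p = 6.20e-08)), and Tlr3, a sensor of double-stranded RNA, differed by -2.73 ± 0.18. The pair of genes that form the lipoprotein receptor thus stood on opposite sides, Tlr2 2.77-fold higher in marrow and Tlr1 8.69-fold higher in spleen. Tlr4, the endotoxin receptor, was not called (0.28 ± 0.15). Of 18 interferon-stimulated genes, 6 were called, each of them higher in marrow, with a median of 0.29 that ranged from 0.14 to 0.48 with 1 library left out. Without TMM factors 5 were higher in marrow and 3 in spleen, and 6 and 2 with the replicate block or without marrow replicate 4. Isg15, a ubiquitin-like protein, read 34.2, 47.8, 83 and 64.5 FPKM in the marrow libraries and 56.6, 20.1, 38.4 and 57 FPKM in the spleen libraries, so that libraries of 1 organ differed by more than the organs did.

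Immediate early genes, which cells switch on within minutes of a stimulus, were called in 13 of 16 cases tested, 4 higher in marrow and 9 in spleen (median -0.27). The marrow count was 2 without spleen replicate 1, without TMM factors, with upper quartile scaling and with reduced totals. The Egr factors, which follow antigen receptor signals in lymphocytes, had the largest differences. Egr1 read 0.954, 0.8, 1.07 and 0.843 FPKM in the marrow libraries and 8.5, 9.98, 7.84 and 7.46 FPKM in the spleen libraries (-2.84 ± 0.14 (adjusted p = 3.29e-07)) and Egr3 1.02, 0.745, 0.619 and 0.858 FPKM in the marrow libraries and 19.1, 14.2, 17.4 and 15.8 FPKM in the spleen libraries (-3.98 ± 0.16 (adjusted p = 1.28e-07)). Of 20 ribosomal protein genes, 17 were higher in spleen and 3 were not called, with a median of -0.43 and none past 2-fold. Ribosomal protein genes held 5.27% ± 0.468 of spleen fragments and 3.18% ± 0.258 of marrow fragments, and mitochondrial genes 1.6% ± 0.0771 and 1.01% ± 0.118 (exact permutation tests, two-sided, p = 0.0286 each, adjusted p = 0.0393).

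Genes of stroma and endothelium, cells that lack CD45, were low but not absent. Of 19, 11 passed the filter, 10 of these were higher in marrow and 1 in spleen (median 1.21), and the sum over the list was 11.5 to 14 FPKM in marrow and 3.34 to 5.74 in spleen. Cxcl12, the retention chemokine of marrow stroma, read 1.97, 3.67, 1.42 and 3.19 FPKM in the marrow libraries and 0.0546, 0.112, 0.123 and 0.0465 FPKM in the spleen libraries (3.96 ± 0.29 (adjusted p = 3.15e-06)). Ibsp, a protein of bone-forming cells, had no read in spleen and was at least 28.7-fold higher in marrow at 0.688 ± 0.33 FPKM. Cxcl13, which follicular stroma makes to attract Cxcr5-bearing B cells, had no read in marrow and was at least 26.5-fold higher in spleen at 1.2 ± 0.823 FPKM. What part carried-over stromal RNA plays in other differences was not tested. Among genes with 10 reads or more in every library of 1 organ, 3 had no read in the other organ's libraries on the marrow side (Vpreb2, Ibsp and Gm15845) and 9 on the spleen side, of which 4 were T cell receptor segments. Hs3st2, a heparan sulfate sulfotransferase, had 346 reads in spleen and none in marrow, at least 111-fold, with 1.95, 1.12, 2.57 and 1.92 FPKM in the spleen libraries.

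The 8 libraries of hM3Dq mice gave a second comparison of the organs in other animals, in which 10986 of 16770 genes (65.5%) were called, 32.3% of genes higher in marrow and 33.2% higher in spleen. Of the 5609 genes higher in marrow in control mice and tested there, 4741 (84.5%) were called in the same direction, and of the 5873 higher in spleen, 4808 (81.9%) were. A total of 13 genes were called in opposite directions. Of the 4840 genes that differed at least 2-fold in control mice, 4554 (94.1%) were called in the same direction and 0 in the opposite one. Elane differed by 5.33 in those mice, Cr2 by -5.13, Cd3e by -3.87 and Cdk1 by 2.53. Ltf differed by 3.87, S1pr1 by -3.44 and Cxcr4 by 0.66 against 1.85 in control mice; whether the difference between the organs itself differs between the virus groups was not tested here.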

How the data were processed

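Per the file headers, the deposited values are FPKM, 1 file per library, for 49585 Ensembl genes. The submitters' processing notes name CASAVA 1.9, STAR 2.6.1a, featureCounts, edgeR 3.28.1 and the build GRCm38. Neither annotation release nor strand setting is stated there, so overlapping and antisense genes can share reads. Per the labels' protocols, RNA was poly(A)-selected. Multiplying FPKM by exon lengths of GENCODE M21 gave whole reads (tolerance 0.01) for 27927 of 31954 genes above 0 (87.4%), and 4027 did so with another length. The recovered reads served the filter (10 reads in 4 libraries) and TMM factors (trims of 30% and 5%). The depth, 12.55 to 16.96 megafragments, is the total implied by the scaling of the FPKM values. The floors of 3 reads cover counting error only, while the ± values measure the spread between libraries.

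limma 3.58.1 (R 4.3.3) was fitted to log2(FPKM divided by TMM factors + 0.1) of the 8 libraries with a trend of the spread, two-sided, adjusted over all genes tested; the pseudocount understates differences of low genes. Library measures had exact permutation tests over 70 splits. Tables used pandas 2.3.3 and plots matplotlib 3.10.9 under Python 3.11.15. The procedure was run on simulated data in which few genes were changed, by small folds, with a common spread for all genes. That setting differs from these data, where most genes were called, so it does not test the scaling under such a shift. Symbols matched for 49326 genes (99.5%). No library was a copy of another: replicate pairs differed beyond sampling noise (chi-square per degree of freedom 6.62 to 32.98).

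The 34 gene lists and the comparison were chosen with earlier results of these data known. Genes named are the 12 largest called differences per organ (mean of 20 FPKM or more, no overlap, no predicted models or receptor segments), the first 6 of each list and called or exceptional members; Ptprc, Lat, Lck, Hs3st2 and genes of low count were added after their values were seen. Alternatives were other scalings, pseudocounts, filters, spread models, voom, all 16 libraries, a replicate block and each library left out. Some listed genes are counted with their lists and are otherwise not reported here.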

Additional observations from a re-analysis of the deposited data

Results flagged for a closer look

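A library stood apart from the other 3 of its organ in 17 of 415 groups examined (4.1%), by the gap to its nearest neighbour over the whole range of the 4. Chance gives such a gap in about 1 group in 20, so the number is near what chance gives, and no explanation was weighed. Marrow replicate 2 was the highest library for Trac at 7.07 FPKM against 5.71 to 5.92. Marrow replicate 2 was the lowest library for Olfm4 at 55.5 FPKM against 69 to 71.5. Marrow replicate 3 was the highest library for Foxp3 at 3.82 FPKM against 2.95 to 3.07 and Timd4 at 2.71 FPKM against 0.232 to 0.55. Marrow replicate 3 was the lowest library for Ciita at 1.23 FPKM against 2.39 to 2.44 and F13a1 at 60.5 FPKM against 83.1 to 86.9. Marrow replicate 4 was the highest library for Prf1 at 1.51 FPKM against 0.856 to 0.931. Spleen replicate 1 was the highest library for Mcm7 at 25.7 FPKM against 17.8 to 19.1. Spleen replicate 1 was the lowest library for H2-Aa at 559.8 FPKM against 609 to 616, Klf2 at 131 FPKM against 155 to 157 and MHC class II genes in sum at 5184 FPKM against 5521 to 5567. Spleen replicate 1 also lay below the rest for pattern recognition genes in sum at 132 FPKM against 143 to 145. Spleen replicate 2 was the highest library for Cd8a at 37 FPKM against 30.1 to 30.5 and Slamf1 at 3.32 FPKM against 3.06 to 3.08. Spleen replicate 2 was the lowest library for Marco at 7.67 FPKM against 9.05 to 9.28. Spleen replicate 3 was the highest library for Timd4 at 8.38 FPKM against 2.88 to 3.81. Spleen replicate 3 was the lowest library for megakaryocyte and platelet genes in sum at 26.6 FPKM against 33.1 to 34.3.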

How the results depend on the processing

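The calls rest on the libraries as deposited, and their level of expression limits the folds: with a pseudocount of 1 in place of 0.1, 3182 genes differed at least 2-fold, against 5081, since low genes shrink. The number of genes called stayed within 1.5 times under the other alternatives run, from 10440 to 11504 with 1 library left out, and the 2-fold count from 4432 to 4935. Without a filter 13007 of 30217 genes were called. The share of calls higher in marrow was 33.9% without TMM factors, 40.5% with upper quartile scaling, 34.9% with totals that leave out haemoglobin, immunoglobulin, mitochondrial, S100a8 and S100a9 genes, and 49.2% with size factors. voom on the recovered reads called 11856 genes.

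Of 149 called genes named, 139 were tested under all alternatives, of which 134 kept call and direction throughout. The other 10 were removed by the filter under at least one. In all 5 lost the call under at least one alternative in which they were tested, and 0 changed direction. Directions changed only for genes that were not called: without TMM factors, Igha at -0.103, S1pr4 at -0.186, Sdc1 at -0.060, Zbtb46 at -0.212. With reduced totals, Igha at -0.083, S1pr4 at -0.167, Sdc1 at -0.042, Zbtb46 at -0.195. With upper quartile scaling, S1pr4 at -0.072, Zbtb46 at -0.111. With 1 library left out, Igha from -0.042 to 0.284, Il1b from -0.193 to 0.119, S1pr4 from -0.023 to 0.125, Zbtb46 from -0.136 to 0.081. The cause was not tested.

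With the replicate number as a block, 11346 genes were called and 5105 at least 2-fold. The deviations of same-numbered libraries correlated at 0.0377 to 0.122, not above 0.1 in every pair, and the main fit was left unpaired. That cutoff does not settle the matter, since 8 of 8 libraries correlated best with the library of their own number. Whether same-numbered libraries share a mouse or handling was not tested.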
